A study of Caenorhabditis elegans with 12 samples.

Results

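Clone-named genes of Caenorhabditis elegans are genes that still carry the name of the sequenced clone and a number, such as ZK105.1, because no functional name has been given to them in the gene table. From the whole-worm transcriptomes, those clone-named genes were taken whose lowest value among the Δlpp libraries was at least 4 times the highest value among the BW25113 libraries, with a mean of at least 2 TPM in the Δlpp group. TPM is the transcript level of a gene corrected for its length and set relative to the sum over all genes of that library. The rule was met by 151 of 17686 clone-named features, out of 46926 features in all. That share was 0.854% of the clone-named features, beside 0.482% of all features and 0.256% of the features without a clone name. In the other direction, with BW25113 above Δlpp, 506 clone-named features passed the same rule, a share of 2.86%. The genes were chosen by these same TPM values, so the difference between the groups in these genes is given as a description, with no test.

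All worms were of the wild-type strain N2, and by the study's methods the strain was kept on a high-fat nematode growth medium. The Δlpp group (6 libraries) was fed Escherichia coli with a deletion of lpp, the gene of Braun's lipoprotein, and the BW25113 group (6 libraries) was fed the parental strain BW25113. RNA came from whole worms with ribosomal RNA removed, and both groups differed only in their food as far as the labels state. The age of the worms at RNA extraction and whether the libraries came from separate cultures were not given in the sources used here, so the spread between libraries may be partly technical.

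C. elegans eats bacteria and meets its food in the intestine, where secreted lysozymes, saposin-like proteins, C-type lectins and chitinase-like proteins act in digestion and defence. Infection with Gram-positive bacteria is known to switch on fmo-2, a flavin-containing monooxygenase, through the transcription factors HLH-30 and NHR-49, while the p38 kinase PMK-1 controls another set of secreted immune effectors. Many small genes of the worm that respond to food or infection have no assigned function and are known by clone name only.

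The 151 genes fell into sets of 83 and 68 that differ in what the files hold for them. Of the 151, 83 had a TPM above 0 in every Δlpp library (0.469% of the clone-named features, beside 0.219% of the features without a clone name), and 82 of these 83 are annotated as protein coding. The other 68 were at TPM 0 in every BW25113 library and also in at least 1 Δlpp library, and they passed because 4 times 0 is 0. Among the 68, 54 had at most 3 estimated counts summed over all 6 Δlpp libraries and 37 had at most 1. For these 54 genes the description of a higher level on the Δlpp mutant rests on almost no reads. The other 14 had more than 3 counts, 4 of them more than 10 and 2 more than 100. The results below are therefore given first and mainly for the 83.

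**Figure D1:**
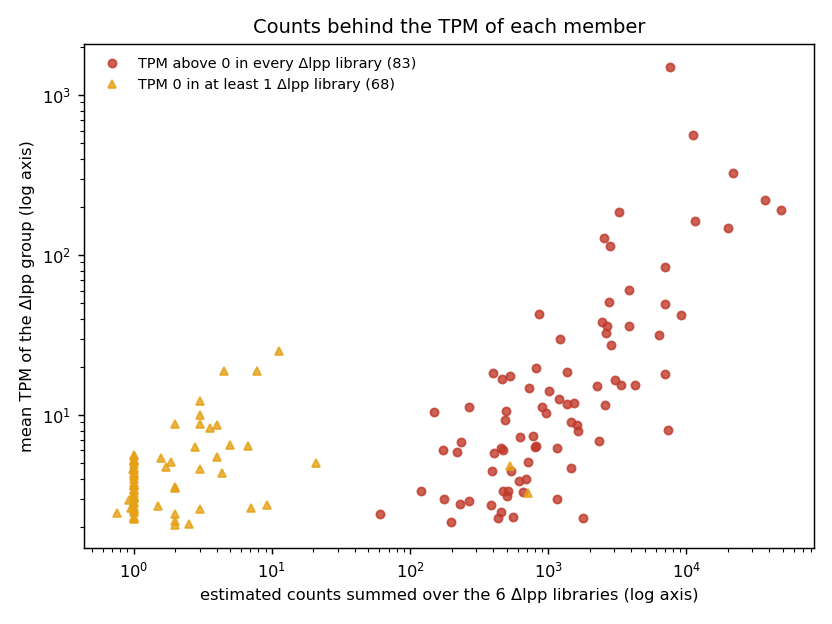
Each point is 1 of the 151 genes, with the estimated counts summed over the 6 Δlpp libraries on the horizontal log axis and the mean TPM of the Δlpp group on the vertical log axis. The 83 genes above 0 in every Δlpp library (circles) had 61 counts or more, whereas 54 of the other 68 (triangles) lie at 3 counts or fewer although their mean TPM reached the minimum of 2.

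Behind the values of the 83 genes stood a median of 1013 counts over the Δlpp group, from 61 for F20A1.8 to 48681 for T22F3.11, and a median of 60 counts over the BW25113 group. Their summed TPM was 4593 ± 389 (SD, n = 6) for Δlpp and 329 ± 38.5 (SD, n = 6) for BW25113. The lowest Δlpp library, replicate 5, held 3820 TPM and the highest BW25113 library, replicate 1, held 389 TPM. A few genes carried most of this sum. C54C8.12 alone made up 32.7% of it in the Δlpp group, and the 4 highest genes together 56.9%. Of the 83, 10 had a mean of at least 100 TPM in the Δlpp group, 34 lay from 10 to under 100 TPM, and 39 from 2 to under 10 TPM. The ratio of the group means had a median of 14.5 and ran from 5.08 for F09F9.4 to 128 for F49C12.2.

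The highest gene was C54C8.12 (WBGene00044242), a gene of 1 exon and 82 codons on chromosome I from 12456926 to 12457174 (WBcel235, plus strand). Its TPM in the Δlpp group was 1395 at the lowest, 1492 at the median and 1641 at the highest, and in the BW25113 group 19.2, 40.2 and 56.2. Its Δlpp libraries lay close together, and with means of 1502 ± 88.9 against 39.8 ± 14.4 TPM (SD, n = 6 each) the level was 37.7 times as high. The lowest Δlpp library was 24.8 times the highest BW25113 library, the widest separation among the 83 genes apart from Y56A3A.22, which had no BW25113 counts.

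ZK813.2 (X, 3443826 to 3444191) had the second highest level and, with 66.7 to 119.5 TPM in the BW25113 group, the highest level there. Its Δlpp libraries ran from 503 through a median of 557 to 612 TPM, and the lowest of them was 4.21 times the highest BW25113 library. ZK813.2 was thus a gene of the worms on both foods whose level differed 6.34-fold between the means. ZK105.1 (V, 7713991 to 7714698), a coding gene of 186 codons, was at 258, 327 and 387 TPM (lowest, median and highest) on Δlpp and at 12.7, 17.3 and 29.6 TPM on BW25113, a 17.5-fold difference of the means.

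Y53F4B.45 (II, 15042805 to 15044011) was the single gene of the 83 that is annotated as a noncoding RNA. It stood at 135, 230 and 277 TPM on Δlpp and at 21.2, 26.6 and 29.5 TPM on BW25113, again as lowest, median and highest. Its 37216 counts over the Δlpp group make it one of the best measured genes of the set. It lies within trip-4 on the opposite strand without overlapping its exons, and trip-4 was at means of 37.9 and 27.2 TPM. On counts with TMM factors the log2 fold change of trip-4 was -0.18, so its direction depended on the scale.

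T22F3.11 (V, 3612158 to 3614553, 453 codons) and C23G10.11 (III, 6215164 to 6215576, 63 codons) resembled each other in spread. T22F3.11 was at 116.7, 203 and 259 TPM on Δlpp and at 2.99, 9.82 and 23.1 TPM on BW25113. C23G10.11 was at 106, 198 and 221 TPM on Δlpp and at 2.71, 8.67 and 18.04 TPM on BW25113. In both genes replicate 5 was the lowest Δlpp library, and in both replicate 3 was the lowest and replicate 5 the highest BW25113 library. The ratios of the means were 17.1 and 19.4.

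T05H10.3 (II, 8049024 to 8050577) is named mtre-1 in the Ensembl annotation. Its Δlpp libraries ran from 133 through 170 to 185 TPM and its BW25113 libraries from 7.27 through 8.80 to 13.1 TPM, so that all Δlpp libraries were more than 10 times the highest BW25113 library. Its exons overlap those of apn-1 on the opposite strand, which was at means of 21.3 and 9.93 TPM. C32F10.4 (I, 5808421 to 5810002) was at 105, 152 and 170 TPM against 17.9, 21.4 and 22.8 TPM. The narrow BW25113 range of C32F10.4 (mean 21.1 ± 1.83 TPM, SD, n = 6) contrasts with the wide BW25113 range of T22F3.11 (11.15 ± 6.78 TPM).

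T23E7.6 (X, 17680767 to 17684811) was at 108, 128 and 143 TPM against 5.42, 15.5 and 19.3 TPM, the lowest BW25113 value again being that of replicate 3. K04A8.21 (V, 6556653 to 6557135) is spp-27 in the Ensembl annotation and belongs by that name to the saposin-like proteins, some of which are known to permeabilize bacterial membranes. Its Δlpp libraries spread from 59.8 through 115 to 202 TPM, the widest range among the 12 highest genes for its level (114 ± 49.6 TPM, SD, n = 6), whereas its BW25113 libraries were at 0.72, 5.32 and 6.66 TPM. No Δlpp library of K04A8.21 came near the BW25113 range. Y110A2AL.4 (II, 2839304 to 2840386) was at 68.1, 88.2 and 98.0 TPM against 4.64, 5.44 and 7.89 TPM, and F08F1.4 (X, 8413430 to 8414195) was at 45.4, 64.4 and 65.5 TPM against 5.58, 7.08 and 10.7 TPM.

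**Figure D2:**
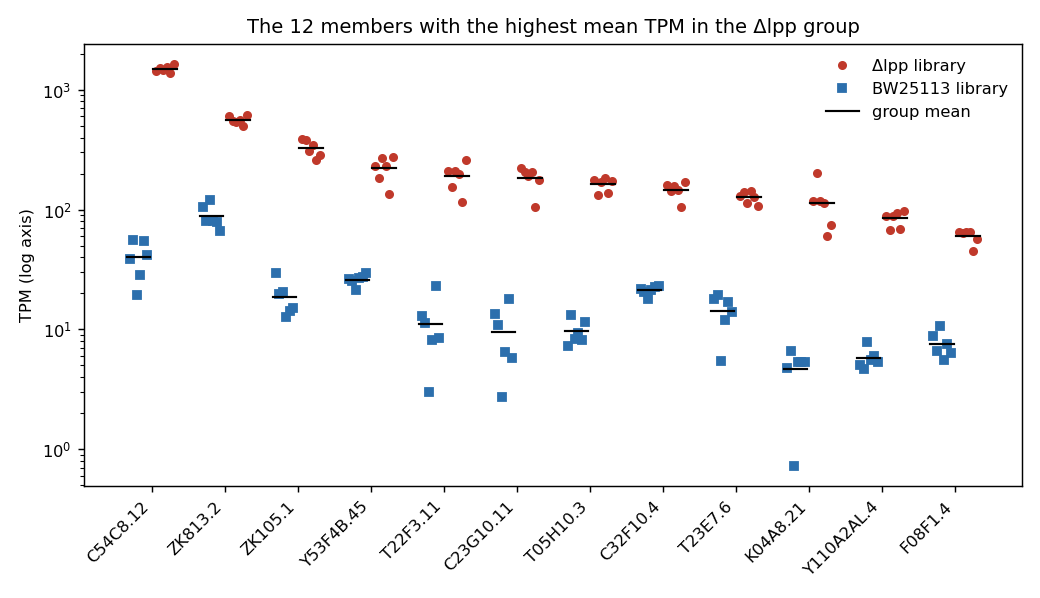
TPM of each library on a log axis for the 12 genes with the highest mean in the Δlpp group, with circles for Δlpp libraries, squares for BW25113 libraries and bars for the group means (n = 6 each). All circles of a gene lie above all its squares, which the choice of the genes fixes, and the single low square of K04A8.21 is BW25113 replicate 3 at 0.72 TPM.

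Among genes of lower level, the separation between groups was wide for several. C18H7.1 (IV, 615544 to 620936, 425 codons) was at 10.9, 16.2 and 18.03 TPM on Δlpp and at 0.05, 0.33 and 0.48 TPM on BW25113, so its lowest Δlpp library was 22.7 times its highest BW25113 library. For ZC239.22 (II, 3219687 to 3220823) the values were 29.0, 41.0 and 44.6 TPM against 0.39, 1.25 and 2.05 TPM. C10F3.7 (V, 5985436 to 5986855) was at 25.9, 36.1 and 43.7 TPM against 0.83, 1.47 and 2.38 TPM. These 3 genes combined a moderate level on Δlpp with few counts on BW25113, 56 over the 6 libraries for C18H7.1.

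Y45F10D.6 (IV, 13796211 to 13797909) was at 9.50, 14.6 and 16.8 TPM against 0, 0.24 and 0.77 TPM. K05F6.10 (II, 1574540 to 1576130) was at 2.53, 3.09 and 4.11 TPM against 0.08, 0.14 and 0.21 TPM, and Y54G2A.37 (IV, 2820708 to 2823542) was at 2.15, 4.31 and 4.68 TPM against 0.07, 0.10 and 0.19 TPM. The BW25113 values of these low genes rest on few reads, 21 counts over the 6 libraries for Y45F10D.6, 30 for K05F6.10 and 18 for Y54G2A.37, and their ratios are correspondingly uncertain. Apart from Y56A3A.22, C02E7.10 and F20A1.8 had the fewest BW25113 counts of the 83. C02E7.10 had 120 counts on Δlpp and 3 on BW25113, a ratio of 39.6 relative to the library totals with an exact 95% interval of 13.2 to 195. F20A1.8 had 61 counts and 2 counts, a ratio of 30.2 (8.01 to 255). These intervals cover counting error only.

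**Figure D3:**
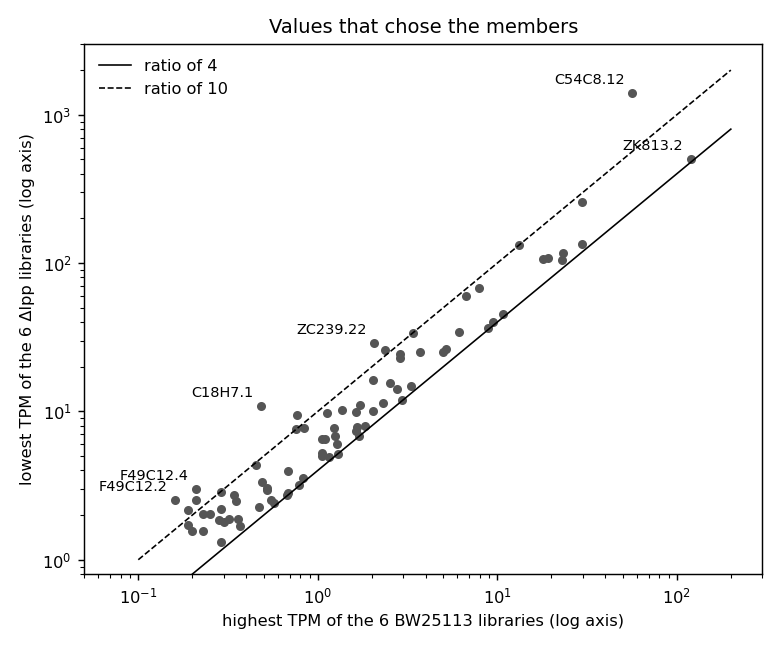
For the 82 genes with a BW25113 value above 0, the highest TPM of the BW25113 libraries is plotted against the lowest TPM of the Δlpp libraries, both on log axes, with lines at ratios of 4 and 10. No gene lies below the solid line, which the rule fixes, 12 lie on or above the dashed line, and C54C8.12 is the farthest from the solid line.

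Separation at the edge of the rule was gradual. Of the 82 genes with a BW25113 value above 0, 12 had a lowest Δlpp library at least 10 times their highest BW25113 library, whereas for 28 the ratio was under 5. The 3 genes closest to the limit from inside were C35E7.4 with a ratio of 4, R09E10.5 with 4.03 and R11D1.3 with 4.04. The 3 closest from outside were C44B7.5 with 3.97 at a mean of 253 TPM, Y51H4A.5 with 3.95 at 10.5 TPM and T20F5.4 with 3.94 at 39.4 TPM. At the minimum of 2 TPM, the lowest of the 83 genes were C07G3.10 at a mean of 2.13, C10C5.5 at 2.25 and C46A5.4 at 2.27 TPM, and the next genes below were F11A5.3 at 1.99, C29A12.6 at 1.93 and ZK813.6 at 1.88 TPM. Over all 151 genes the nearest inside were T21B10.11 at 2.05 TPM on 2 counts and K02F3.15 at 2.08 TPM on 2.52 counts, and Y8G1A.3 lay outside at 1.98 TPM on 1 count. When the ratio was instead taken on CPM (counts relative to the library total) with TMM factors, a scaling that takes most genes as unchanged, 41 of the 83 genes still passed and none was added. Without BW25113 replicate 1, the number was higher by 39, and without Δlpp replicate 5 by 31.

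The annotated proteins of the 83 were short. Their median was 204 codons, beside 292 codons over the 6579 coding genes among the clone-named genes that passed the filter on low counts, and 10 of the 82 had under 100 codons, beside 517 of the 6579. Over 500 codons were found in 9.76% of the 82 coding genes, beside 18.7%. The shortest was T26H5.11 with 17 codons and the longest C46A5.4 with 1537. They had a median of 4 exons, beside 5. On chromosome V lay 28 of the 83 (33.7%, beside 21.3% of the clone-named genes tested) and on chromosome IV 23 (27.7%, beside 16.9%), whereas chromosome I held 6 (7.23%, beside 15.1%). These shares are a description, and no test was made of them. The 83 had to reach a mean of 2 TPM, a level corrected for length, whereas the 6579 had only to pass the filter on counts. The part of these unlike limits in the lengths was not tested.

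Some of the 83 carry a functional name in the Ensembl annotation although the deposited table lists the clone name. Besides mtre-1 and spp-27, C08B6.4 is cht-5, named as a chitinase gene, and it was at 33.98, 42.4 and 47.3 TPM on Δlpp and at 1.89, 2.54 and 3.38 TPM on BW25113. ZK970.7 is srlf-34 and F13E9.14 is srlf-12. ZK970.7 was at 36.6 to 68.4 TPM on Δlpp and 4.75 to 8.85 TPM on BW25113, and F13E9.14 at 5.23 to 7.40 and 0.54 to 1.06 TPM. For the remaining genes of the 83 no functional name was found, and no role is given to them here.

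The genes were scattered over the chromosomes, with 2 pairs of direct neighbours. F17E9.3 and F17E9.2 lie on chromosome IV, on the same strand with 428 bases between them. F17E9.3 was at 4.92, 7.03 and 8.24 TPM against 0.17, 0.85 and 1.16 TPM, and F17E9.2 at 7.37, 9.86 and 14.5 TPM against 1.09, 1.25 and 1.63 TPM. The exons of F17E9.2 overlap those of the collagen gene col-116 on the same strand, so their reads cannot be fully told apart, and col-116 itself was at means of 3.67 and 0.58 TPM (log2 fold change 2.08). T26H5.10 and T26H5.11 lie 18 bases apart on chromosome V. T26H5.10 was at 11.07, 18.7 and 22.5 TPM against 0.36, 1.05 and 1.72 TPM. T26H5.11 had TPM of 1.32 to 4.06 in 5 Δlpp libraries and 23.7 in replicate 5, while its counts in that library, 22.5, lay within the 21.1 to 66.8 of the others, so the high TPM is not matched by more reads.

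Neighbouring genes outside the set were not used by the rule and could be tested. The nearest protein-coding genes on either side of the 83 numbered 159, of which 115 were tested. In edgeR's quasi-likelihood test, with a call at an adjusted p (Benjamini-Hochberg over all 15266 genes tested) under 0.05 and a log2 fold change over 1, 32 of the 115 (27.8%) were higher in the Δlpp group, beside 12.1% of all genes tested, and 12 (10.4%) were lower, beside 15.6%. Over the 6639 clone-named genes tested, 13.2% were called higher and 20.4% lower. The median log2 fold change of the 115 neighbours was 0.26, beside 0.05 over all genes tested. Some neighbours overlap or abut a gene of the set and may share reads with it, and this share was not tested.

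The clearest neighbourhood was F49C12 on chromosome IV. F49C12.2 (9297969 to 9299245) had the largest ratio of the means, at 2.52, 5.26 and 6.76 TPM on Δlpp and 0, 0.02 and 0.16 TPM on BW25113 (712 and 6 counts over the groups). F49C12.4 (9302655 to 9304094) was at 2.98, 6.47 and 8.65 TPM against 0.04, 0.13 and 0.21 TPM. Between them lies F49C12.3 on the other strand, at means of 1.70 and 0.025 TPM, which was under the minimum of 2 TPM and had a log2 fold change of 5.38 (adjusted p = 4.22e-08, edgeR). F49C12.5, on the far side of F49C12.4, was at 1.02 and 0.04 TPM with a log2 fold change of 3.99 (adjusted p = 3.19e-06). F49C12.1 and nhr-264, a nuclear hormone receptor gene farther on, had too few counts to be tested, 94 against 2 and 28.1 against 1 over the groups. All 6 genes of this stretch thus had more counts in the Δlpp group, on both strands.

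Other neighbours with large changes included Y59A8B.19 beside Y59A8B.26, at means of 7.998 and 0.26 TPM (log2 fold change 4.33, adjusted p = 2.05e-05 in edgeR). Next to C54C8.12 lies clec-11, a C-type lectin gene, which was at 1.18 and 0.057 TPM (log2 fold change 3.71, adjusted p = 6.27e-10), far under the level of C54C8.12 itself. Beside the T26H5 pair, T26H5.9 was at 601 and 89.0 TPM (log2 fold change 2.27) and T26H5.8 at 2.43 and 0.18 TPM (log2 fold change 3.15). Neighbours also moved the other way. F59A6.4 beside F59A6.10 had a log2 fold change of -4.37, clp-6, a calpain gene, beside Y77E11A.23 of -4.20, and R09E10.13 beside R09E10.5 of -3.30. A higher level of the clone-named gene did not go with a higher level of its neighbour in these cases.

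Of the 83 genes, 24 overlap a protein-coding gene and 20 have exons that overlap its exons. Whether counting used strand was not given in the sources used here, so reads of such pairs cannot be told apart. In 3 of the 20 the partner lies on the same strand. They were srg-23 with Y25C1A.14, col-116 with F17E9.2 and klo-1 with C46A5.4. The partner's level was not higher in every case. T23E7.2, whose exons overlap T23E7.6, was at means of 43.8 TPM on Δlpp and 63.9 TPM on BW25113, and C29G2.6, which overlaps C29G2.3, at 22.1 and 26.2 TPM.

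Within each group, single libraries were at the bottom for many of the 83 genes. Replicate 5 was the lowest Δlpp library for 47 of the 83 (56.6%), beside 21.5% of all genes tested. Its place at the bottom held on other scales, for 40 genes (48.2%, beside 19.9%) on CPM with TMM factors and for 55 (66.3%, beside 31.6%) on CPM by library size. In the BW25113 group, replicate 3 was the lowest for 28 of the 82 genes with any BW25113 value (34.1%, beside 22.3%), and for 29 (35.4%, beside 24.3%) on CPM with TMM factors. No library was at the top for most of the 82 genes on either scale. The median coefficient of variation of the 83 in the Δlpp group was 0.200, beside 0.146 over 4786 clone-named tested genes of at least 2 TPM, and in the BW25113 group 0.422, beside 0.212. The genes were chosen with a low BW25113 level, where counting error is larger, and its part in this spread was not tested.

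fmo-2, picked for comparison after its values had been seen, is not in the set because it has a functional name. Its Δlpp libraries were at 343, 581 and 649 TPM (lowest, median and highest), with replicate 5 the lowest, and its BW25113 libraries at 4.93, 9.45 and 18.6 TPM, with replicate 3 the lowest and replicate 5 the highest. Deviations from the group mean, on log2(TPM + 0.1), were compared between each of the 83 genes and fmo-2 over the 12 libraries. C23G10.11 was most like fmo-2 (Pearson r = 0.916), followed by T22F3.11 (0.893), Y59A8B.26 (0.890) and F13E9.14 (0.822). These 4 genes are 4.82% of the 83, beside 0.426% of all genes tested with an r of at least 0.8. For C23G10.11 the likeness was found within both groups, with r = 0.882 over the 6 Δlpp and 0.924 over the 6 BW25113 libraries, whereas for F13E9.14 it lay in the BW25113 group (0.966) more than in the Δlpp group (0.349). The median r of the 83 was 0.19, beside 0.02 over all genes tested, and 24 of the 83 had an r under 0, so over the 12 libraries together most of the set did not follow fmo-2 closely. Within the 6 Δlpp libraries alone the picture differed, and r was higher than over the 12 libraries for most of the genes. It ran from -0.798 for T26H5.11 to 0.987 for C18H7.1. F54C8.6, with the lowest r over the 12 libraries (-0.746), had 0.716 within the Δlpp group and -0.947 within the BW25113 group. Over the 12 libraries C18H7.1 had an r of 0.532, and over the 6 BW25113 libraries 0.475. The values share their libraries and depth, and no p is given.

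**Figure D4:**
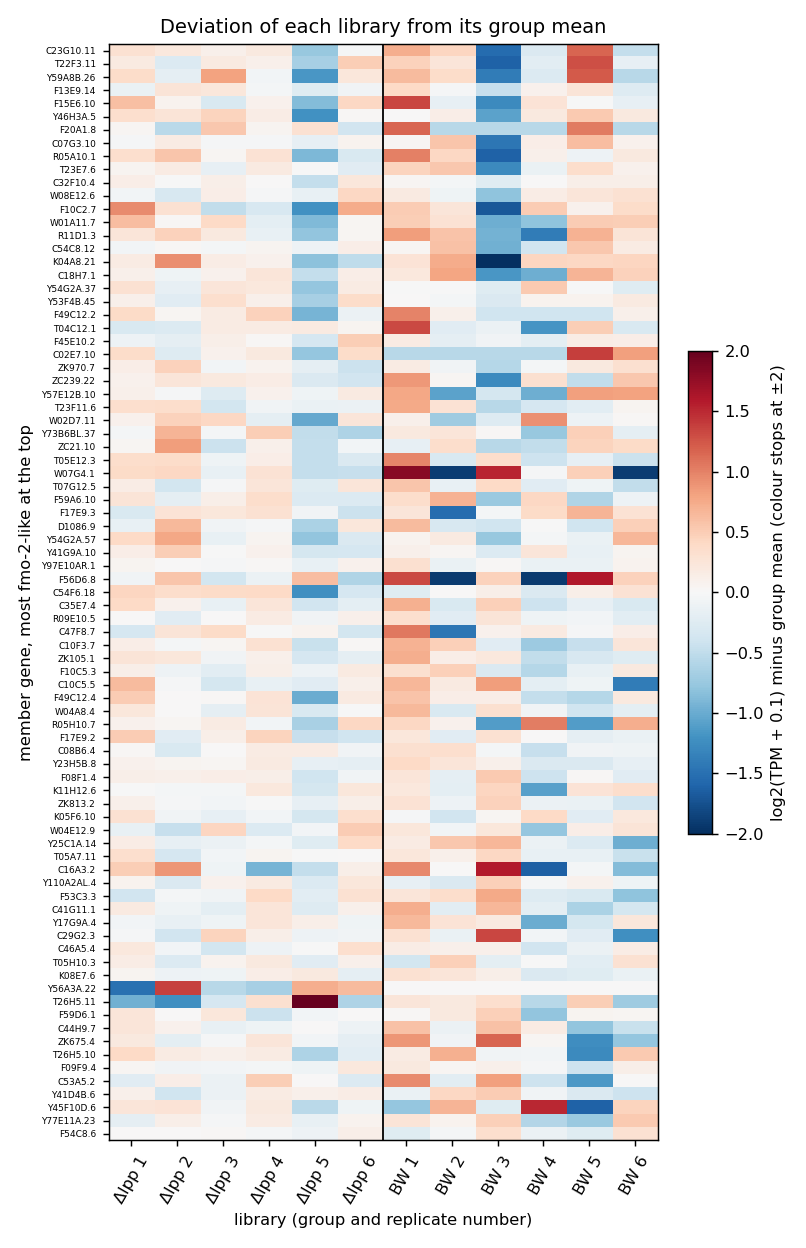
Each row is 1 of the 83 genes and each column 1 library, coloured by log2(TPM + 0.1) minus the mean of its group, red above and blue below, with the genes ordered by likeness to fmo-2. The column of Δlpp replicate 5 is blue for most rows, and in the top rows, led by C23G10.11 and T22F3.11, BW25113 replicate 3 is blue and replicate 5 red.

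The 68 genes with a Δlpp library at 0 were of another kind. By annotation 54 were noncoding, with 38 labelled ncRNA, 13 small nucleolar RNA, 2 small nuclear RNA and 1 antisense RNA, and 14 were coding. Their median exon length was 143 bases and 64 of the 68 were under 200 bases, beside a median of 814 bases and none under 200 among the 83. For genes this short, 1 count is a large TPM, and the 37 genes with at most 1 count over the Δlpp group reached means of 2.23 to 5.62 TPM. TPM was above 0 in 1 Δlpp library for 45 genes, in 2 for 13 and in 3 to 5 for 10. None of the 68 passed the filter on low counts, which their zeros fix, because the filter asks for enough counts in as many libraries as a group holds. The opposite pattern was found as well. At 0 in every Δlpp library and in at least 1 BW25113 library, with a mean of at least 2 TPM on BW25113, were 57 clone-named features. Of these, 44 had at most 3 counts in the BW25113 group.

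The highest of the 68 was Y71F9B.22, a noncoding RNA gene of 146 bases, at 0 to 58.2 TPM on Δlpp (mean 25.3 ± 19.5, SD, n = 6) from 11.2 counts in total. Y54G2A.74, a small nucleolar RNA gene, was at 88.7 TPM in Δlpp replicate 3, at 24.2 in replicate 6 and at 0 in the other 4, from 4.52 counts in total. W05E10.16 had 7.80 counts over 5 libraries and K02F2.11 had 3 counts over 3 libraries. With 3 counts taken as the limit for the BW25113 group as a whole, the observed Δlpp counts, relative to the library totals, were 3.70 times that limit for Y71F9B.22 and 2.57 times for W05E10.16. The counting error of these few Δlpp counts is not included, so the values are no lower limits of the difference. K02F2.11 lay at that limit, so that no difference was detectable at this depth, and it had 1 count in the BW25113 group, and 5 of the 68 had BW25113 counts although their TPM was listed as 0.

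A few genes stood at 0 on more reads. Y56A3A.22 (III, 11921692 to 11923825), which is 1 of the 83, had 62.4, 456, 140, 122.4, 310 and 276 counts in Δlpp replicates 1 to 6 and 0 in all 6 BW25113 libraries. It lies between trap-4 and nft-1, which were at means of 406 and 56.9 TPM on BW25113. C35D10.5 had 51.8, 105, 91.0, 0, 168 and 109 counts, and Y105E8A.14 had 129, 207, 0, 0, 380 and 0 counts, with 0 in every BW25113 library. Both moved between 0 and over 100 counts within the Δlpp group, so no fold change is given for these 3 genes. Why they are listed at 0 was not tested. C52E2.2 had 0, 3, 8, 4, 3 and 3 counts and 0 on BW25113. Its Δlpp counts were 6.93 times the same limit, again without their own counting error.

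The pathways that act on bacterial food and infection were followed through lists of other genes, none of which is in the set. These lists were chosen with earlier results of the same data known, so their shares are no independent result. Over all genes tested, 12.1% were called higher and 15.6% lower, and a share near these in a list is no result about that list. Of 15 genes of the Gram-positive and HLH-30 or NHR-49 response, 10 were higher and 1 was lower, and the median log2 fold change was 1.22 beside 0.05 over all genes tested. fmo-2 was at means of 551 and 10.8 TPM (log2 fold change 5.07, adjusted p = 1.54e-08), cpr-2, a cathepsin B-like protease, at 30.7 and 0.36 TPM (5.80, adjusted p = 6.38e-11), and the invertebrate lysozyme ilys-3 at 540 and 16.4 TPM (4.505, adjusted p = 1.45e-13), all by edgeR's quasi-likelihood test. ilys-2 had a log2 fold change of 2.57 on uneven levels, at 8.83 ± 9.86 TPM on Δlpp and 1.03 ± 0.546 TPM on BW25113 (SD, n = 6 each). The exception was K05B2.4, which was lower, with a log2 fold change of -1.04, a call that was lost with library size scaling and without BW25113 replicate 3, BW25113 replicate 4 or Δlpp replicate 2.

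Of 14 tested genes of the PMK-1 response none was called higher and 7 were lower in edgeR (median log2 fold change -0.81), while DESeq2 called 0 higher, 2 were higher at an unadjusted p under 0.05, and 1 was called higher with library size scaling. The lowest were C17H12.8 with a log2 fold change of -3.39, lys-2, a lysozyme, with -3.39, sysm-1 with -2.45 and K08D8.5 with -2.12. In the intracellular pathogen response 3 of 15 were higher (pals-4 with 2.31, skr-5 with 1.63 and pals-3 with 1.012) and none lower by edgeR or DESeq2 (3 at an unadjusted p under 0.05). pals-3 was at means of only 0.40 and 0.10 TPM. The number higher was 2 with DESeq2 and 1 by limma on log2(TPM + 1). It was 5 with library size scaling and 5 without BW25113 replicate 1. Among 12 mitochondrial and endoplasmic reticulum stress genes 2 were called lower, a share near that of all genes tested, the chaperone hsp-60 with -1.44 and the glycolytic enzyme gpd-2 with -1.74. All 12 were lower at an unadjusted p under 0.05, with a median log2 fold change of -0.75, so the list lay lower by less than the call limit in most genes. Of these 12 genes 0 were higher by edgeR, by DESeq2 or at an unadjusted p under 0.05. DESeq2 called 4 lower. Without Δlpp replicate 3 or replicate 5 the number lower in edgeR was 4 as well. Of 17 oxidative and xenobiotic response genes 2 were higher, cyp-35B1 with 3.33 and the metallothionein mtl-1 with 1.93, and 5 were lower, among them dod-22 with -2.21 and dod-24 with -1.77, but with library size scaling 4 were higher and 2 lower. Their median log2 fold change was -0.53, and at an unadjusted p under 0.05 4 were higher and 11 lower. Genes of the cilium were mostly higher, in 34 of 44, with bbs-2 at 2.70, osm-6 at 2.67, ifta-2 at 2.45 and dylt-2 at 2.31 on the log2 scale, and none was called lower by edgeR or DESeq2 (2 at an unadjusted p under 0.05). These 4 cilium genes were at low levels, with means from 0.84 TPM (bbs-2) to 2.53 TPM (ifta-2) on Δlpp and from 0.08 to 0.305 TPM on BW25113. On log2(TPM + 1), which compresses low levels, limma called 12 of the cilium list higher. With at least 10 counts required in every library, which leaves out low genes, 13 were called higher. Molt and cuticle genes were lower in 13 of 26, led by bli-1 with -6.998, bli-2 with -6.58, dpy-13 with -3.85 and sqt-1 with -3.31, and none was called higher by edgeR or DESeq2 (1 at an unadjusted p under 0.05), while 1 was with library size scaling.

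Summed levels of the markers of several cell types differed between the groups along with the 83 genes. The summed TPM of 16 sperm markers was 34.5 to 59.99 on Δlpp and 1433 to 2154 on BW25113, with all 14 tested markers lower and the other 2, msp-10 and msp-19, at 0 in every library. Oocyte and eggshell markers summed to 6459 to 8503 TPM against 2317 to 4151 TPM (1 of 15 called higher), and neuronal markers to 546 to 648 TPM against 260 to 301 TPM (1 of 9 called higher by edgeR, 0 by DESeq2), so that the shares called in these lists were at or under the 12.1% of all genes tested. At an unadjusted p under 0.05, 8 of the 15 oocyte and eggshell markers and 9 of the 9 neuronal markers were higher, and 0 were lower. Their median log2 fold changes were 0.32 and 0.66, beside 0.05 over all genes tested. Body wall muscle markers were lower in 4 of 6, intestinal markers in 3 of 7 and hypodermal markers in 1 of 6, each by edgeR. Of 10 germline markers 1 was called lower, glh-1 with a log2 fold change of -1.51, and none higher by edgeR, by DESeq2 or at an unadjusted p under 0.05, with a median of -0.03 and a summed TPM of 671 to 894 against 553 to 782. The part of these differences in the levels of the 83 genes was not tested, and in whole worms more RNA per cell and more cells of a type cannot be told apart. Because the age of the worms at RNA extraction was not given, whether both groups were at the same stage is not known. A difference of stage could not be told apart from the food. The depth was similar, with 21146884 to 23563531 counts in the Δlpp libraries and 20254430 to 24442423 in the BW25113 libraries. TMM factors were 1.08 to 1.27 in the Δlpp group and 0.794 to 0.988 in the BW25113 group, and scaling by library size in place of TMM moved the median log2 fold change of all genes by 0.45 and the higher share of all calls from 43.7% to 68%.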

How the data were processed

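Per the labels and the study's methods, reads were cleaned by the authors with Seqtk and mapped to WBcel235 with HISAT2. Stringtie gave the fragments of each gene, and RNAnorm the TPM. Tool versions, the annotation and the use of strand were not given in the sources used here. The deposited estimated counts are not normalized, and 8.97% of them are not whole numbers. The TPM values deposited by the authors sum to nearly the same total in every library. Coordinates, biotypes and names came from an Ensembl annotation of the same build, which held every one of the 46926 feature IDs.

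The rule was applied to TPM as deposited. Counts were rounded and fitted across all genes with edgeR 4.0.16 (filterByExpr at its minimum of 10 counts and total of 15, TMM, robust quasi-likelihood test, no covariate). DESeq2 1.42.0 and limma 3.58.1 (R 4.3.3) were alternatives, and Python 3.11.15 with pandas 2.3.3 and numpy 2.4.6 did the rest. On simulated counts for 15266 genes edgeR recovered 200 of 200 changed genes with 0 false calls. DESeq2 recovered 200 and limma 187 of the 200, also with 0 false calls. How far this holds for the deposited counts was not tested. A limit of 3 counts equals 0.123 to 0.148 CPM in a library and covers counting error only. Library pairs within a group differed by more than sampling noise. p-values measure the spread between these libraries, which may be technical.

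The genes of the set and all lists were chosen with earlier results of these data known. Named were the 12 genes with the highest mean on Δlpp, the 10 of largest separation with a BW25113 value above 0, the 5 highest at 0 on BW25113, direct neighbours, the 3 on each side of each limit, and up to 4 called genes of the largest change per pathway list. Other names were chosen after their values were seen. Listed genes whose names were not found (6 of 20 in the PMK-1 list, 2 of 23 in the intracellular pathogen list, 1 of 8 intestinal markers) were left out, 4 of the 6 being second names of genes in the list. The planned search for promoter motifs and the comparison of protein sequences were not run here, and no sequence is shown. Of the other marker lists, pharynx (1 of 6 higher), early embryo (2 of 9 higher), male tail and male neurons (3 of 4 higher, 1 lower) and coelomocyte (0 of 3 called by edgeR or DESeq2, 1 lower at an unadjusted p under 0.05) were also counted.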

Additional observations from a re-analysis of the deposited data

Results flagged for a closer look

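Over the 31 genes of the set that are named by rule, each group of 6 libraries was searched for a library far from the other 5, and 4 of 62 groups held one, where chance alone marks about 1 group in 20. K04A8.21 was at 0.72 TPM in BW25113 replicate 3 (3 counts), while the other BW25113 libraries lay at 4.78 to 6.66 TPM (20 to 27 counts). F49C12.2 was at 0.16 TPM in BW25113 replicate 1, from 4 counts beside 0 to 1 in the others. Y54G2A.37 was at 0.19 TPM in BW25113 replicate 4, from 5 counts beside 2 to 3. T26H5.11 was at 23.67 TPM in Δlpp replicate 5 and at 1.32 to 4.06 TPM in the other Δlpp libraries, on 22.5 counts beside 21.1 to 66.8, so that the high value is in TPM and not in the counts.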

How the results depend on the processing

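The number of genes that met the rule, 151, depends on its limits and was 453 at a ratio of 2, 81 at a ratio of 10, 84 at a mean of at least 5 TPM and 650 with no minimum. With alternatives chosen after seeing the data it was 83 when TPM had to be above 0 in every Δlpp library and 85 with a mean of at least 10 counts. The 83 became 385, 149, 40 and 13 at ratios of 2, 3, 6 and 10, 130 with no minimum and 41 with TMM factors. Leaving out 1 library gave 141 to 192 for the 151, and numbers higher by 1 to 39 than the 83. Calls over all genes (1849 higher, 2379 lower) were 3720 higher with library size only, 1032 higher and 1178 lower with at least 10 counts in every library, 4558 higher by limma on log2(TPM + 0.1) and 1244 lower on log2(TPM + 1), and 1824 to 2293 higher and 2281 to 2520 lower without 1 library. Among clone-named genes (875 higher, 1353 lower) the same settings gave 1724, 487 with 495 lower, 2049, and 751 lower, and 868 to 1104 higher and 1292 to 1436 lower without 1 library. Over the pathway lists together, 23 genes were called higher with at least 10 counts in every library and 32 on log2(TPM + 1), and 17 and 18 lower on log2(TPM + 1) and log2(TPM + 0.1), with 47 to 53 higher and 27 to 30 lower without 1 library. The cause was not tested. Of the calls, 41.9% were higher with DESeq2 and 74.1% on log2(TPM + 0.1). Replicate numbers did not pair the libraries (correlations of same-numbered deviations of -0.166 to 0.332), and the replicate block gave 1908 higher and 2356 lower. The comparison of protein identity at 30% was not run.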
